A study of Homo sapiens with 15 samples.

Results

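Genes of exosome biogenesis, tetraspanins and annexins were followed on 15 Affymetrix gene arrays of human umbilical vein endothelial cells (HUVEC) and of T cell exosomes. The list held 48 genes taken by name. For 46 of them the arrays carried a probeset with exactly 1 gene symbol in the platform annotation, among 18417 genes measured in all, and each gene was read from the probeset with its highest mean over the 15 arrays. No probeset was listed for PDCD6IP (ALIX, an ESCRT adaptor), and the one for SDC4 (a syndecan) was shared with ROS1, so neither gene has a value here. FLOT1 had 3 probesets and VAMP7 had 2, with identical values within each gene.

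Exosomes are vesicles that form when the membrane of a late endosome buds inward and the endosome then fuses with the cell surface. Budding uses the ESCRT complexes, which gather ubiquitinated cargo, bend the membrane and cut the neck, with the VPS4 ATPases taking the complex apart. Another route runs through syndecans, syntenin and ALIX, and yet another through ceramide made by sphingomyelinases. Tetraspanins organise the vesicle membrane, SNARE proteins carry out fusion, and annexins bind membrane phospholipids in the presence of calcium. Endothelial cells use several of the same proteins, such as caveolin and annexin A2, for caveolae and for plasmin formation at the surface.

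The study asked how CD47 on T cells bears on what their vesicles carry and do to endothelium. There were 5 groups of 3 arrays: RNA of exosomes from JinB8 cells (labelled JINB8), RNA of exosomes from Jurkat cells (JK, CD47+), HUVEC with JINB8 exosomes, HUVEC with JK exosomes, and untreated HUVEC. Jurkat is a human T cell leukaemia line, and JinB8 is its mutant lacking CD47. Treated HUVEC were kept with the vesicles for 6 h in EGM2, an endothelial growth medium, and the labels do not give the medium of untreated HUVEC apart. Each vesicle kind came from 1 line, and was precipitated with a kit from medium that held human serum. The labels name no mock pellet for untreated HUVEC. The labels do not say whether the 3 arrays of a group came from separate cultures, so p-values measure only the spread between arrays, which may be technical.

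Values are log2 probeset signals, and 3 arrays a group limit their precision. As deposited, the array medians averaged 5.12 ± 0.01 in JINB8 exosome RNA, 5.11 ± 0.03 in JK exosome RNA, 5.11 ± 0.02 in HUVEC with JINB8 exosomes, 5.14 ± 0.03 in HUVEC with JK exosomes and 6.97 ± 0.06 in untreated HUVEC (SD, n = 3 each). All 15 arrays were therefore put on 1 scale by quantile normalization, and every log2 value below is on that scale unless said otherwise. Whatever set the untreated arrays apart cannot be told apart from the treatment. HUVEC were checked against 12 endothelial markers, whose array medians ran from 8.62 to 8.97 with JINB8 exosomes, 8.67 to 8.95 with JK exosomes and 8.56 to 8.71 untreated, against 5.46 to 5.67 in exosome RNA. For 11 T cell markers they ran from 7.61 to 8.04 in JINB8 exosome RNA, 7.36 to 7.47 in JK exosome RNA and 4.40 to 4.69 in the HUVEC groups. For 12 markers of mural cells and fibroblasts they ran from 6.07 to 6.22 in exosome RNA and 5.04 to 5.31 in HUVEC, and for 8 of platelets and myeloid cells from 5.49 to 5.82 in exosome RNA and 4.64 to 4.80 in HUVEC. CD47 itself averaged 5.10 ± 0.27 in JINB8 exosome RNA and 5.07 ± 0.05 in JK exosome RNA (SD, n = 3 each). The site of the JinB8 mutation is not given in the sources used here, so this probeset does not check the label. In bulk samples such as these, fewer cells of a type and less RNA per cell cannot be told apart.

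**Figure D1:**
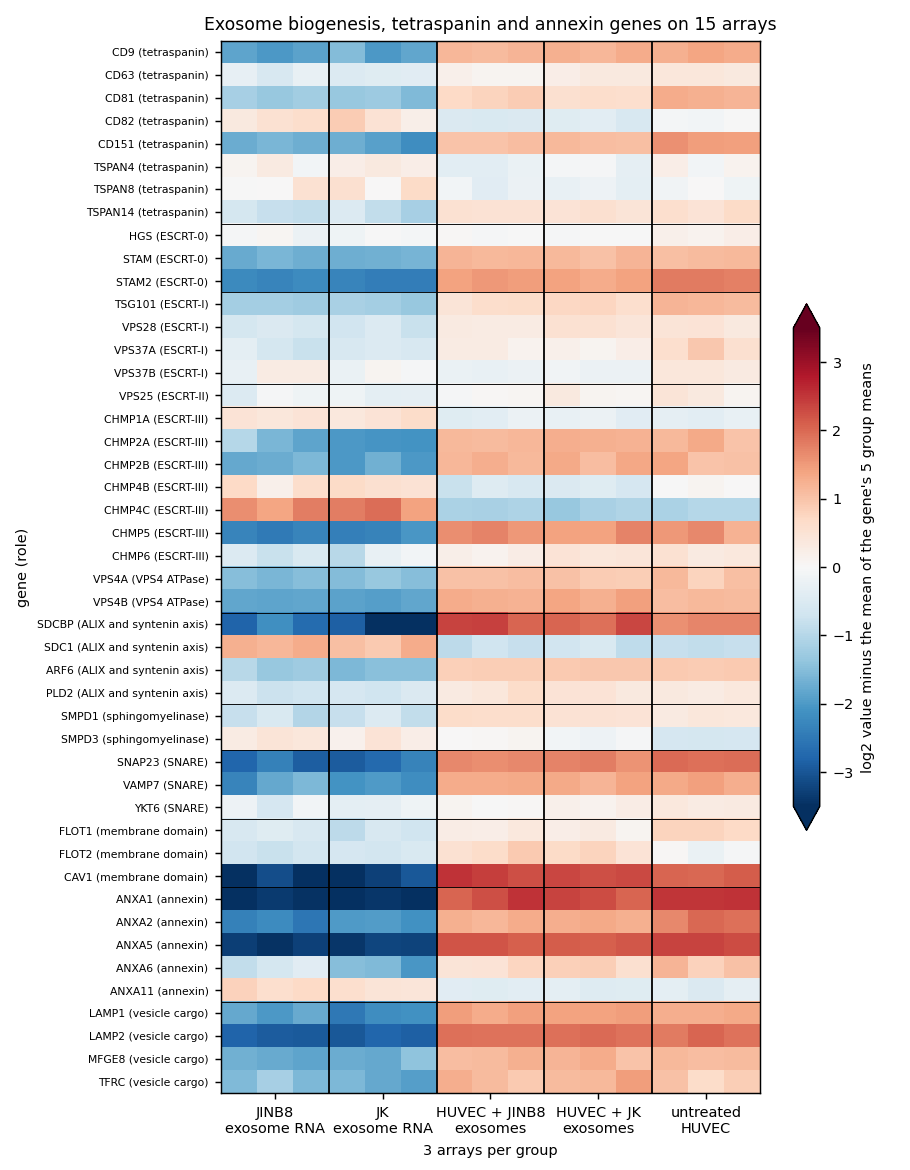
Each row is 1 of the 46 measured genes with its role, each column 1 of 15 arrays, and the colour is the log2 value on the quantile scale minus the mean of the gene's 5 group means, with colours saturating at the ends of the scale. Most genes are blue in the 6 exosome RNA arrays and red in the 9 HUVEC arrays, with CHMP4C and SDC1 the other way round, and the 3 HUVEC groups differ by less.

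In HUVEC with exosomes, about as large a share of these genes passed as of all genes, and by less than 2-fold on the quantile scale. On that scale more of them were lower than higher, while over all genes more were higher. With JINB8 exosomes 24 of 46 genes passed the test against untreated HUVEC, 5 higher and 19 lower, and with JK exosomes 19 passed, 6 higher and 13 lower (limma, Benjamini-Hochberg over all genes, adjusted p under 0.05). Over all 18417 genes 49.2% passed with JINB8 exosomes, 26% higher and 23.1% lower, and 48.6% with JK exosomes, 26.3% higher and 22.3% lower. The median log2 change was -0.10 for these genes and 0.01 for all genes with JINB8 exosomes, and -0.07 and 0.02 with JK exosomes. On the quantile scale none of the 46 reached 2-fold in either comparison, while 3.4% of all genes passed at 2-fold or more with JINB8 exosomes and 3.03% with JK exosomes. With each array centred on its own median, 3 genes passed at 2-fold or more with JINB8 exosomes, FLOT2 (1.35), SDCBP (1.17) and CAV1 (1.02), against 8.52% of all genes, and 1 did with JK exosomes, FLOT2 (1.21), against 7.09%. Both comparisons use the same 3 untreated arrays, so their values stand side by side and are not independent.

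The direction of many genes depended on how the arrays were scaled. With median centring 24 genes were higher and 5 lower with JINB8 exosomes (38.1% and 18.7% of all genes), and 23 were higher and 8 lower with JK exosomes (35.1% and 19.5% of all genes). That scaling put the median change of all genes at 0.13 with JINB8 exosomes and 0.10 with JK exosomes, and that of the 46 genes at 0.31 and 0.30. As deposited, all 46 genes were lower with either exosome, as were 99.1% of all genes with JINB8 exosomes and 99.3% with JK exosomes. The median change on that scale was -1.53 for the 46 genes and -1.71 for all genes with JINB8 exosomes, and -1.49 and -1.68 with JK exosomes. Genes that passed in the same direction on the quantile and the median scale numbered 10 with JINB8 exosomes: SDCBP, SMPD1, SMPD3, FLOT2 and CAV1 were higher, and CD82, TSG101, VPS37B, CHMP4B and FLOT1 were lower. Over all genes 23.4% were higher and 15.8% lower by that rule. With JK exosomes there were 13: VPS4B, SDCBP, SMPD3, FLOT2, CAV1 and TFRC were higher, and CD82, STAM2, TSG101, VPS37A, VPS37B, CHMP4B and FLOT1 were lower. Over all genes 23% were higher and 16.1% lower by that rule. This count was chosen after seeing the data, as were the genes given by array in the next paragraphs other than CD9, CD63, CD81, TSG101, SDCBP and FLOT1.

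**Figure D2:**
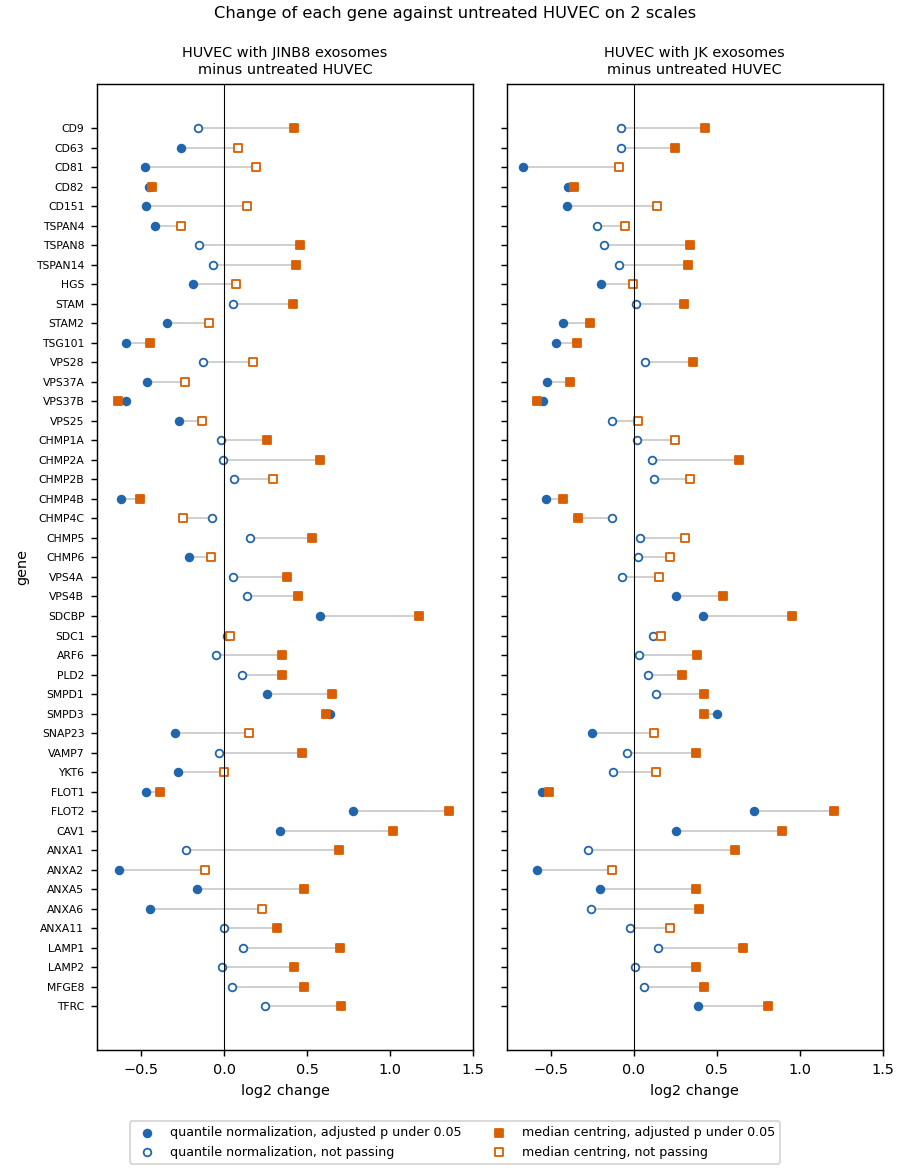
Horizontal axes give the log2 change of each of 46 genes in HUVEC with JINB8 exosomes (left) and with JK exosomes (right) against untreated HUVEC, circles on the quantile scale and squares with median centring, filled where the adjusted p is under 0.05. Squares lie to the right of circles for most genes, and FLOT2, SDCBP and CAV1 are right of 0 on both scales while TSG101, VPS37B, CHMP4B and FLOT1 are left of 0 on both.

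Among the tetraspanins, membrane proteins that cluster integrins and other receptors, CD82 fell with both exosomes on both scales. CD82, which slows cell migration, stood at 6.33, 6.31 and 6.32 with JINB8 exosomes, 6.41, 6.45 and 6.27 with JK exosomes, and 6.77, 6.74 and 6.81 in untreated HUVEC. Its treated arrays all lay below its untreated ones. The log2 change was -0.45 ± 0.07 with JINB8 exosomes (SE, limma adjusted p = 0.000212) and -0.40 ± 0.07 with JK exosomes (adjusted p = 0.000572). CD81, a vesicle marker that binds many partner proteins, stood at 9.71, 9.79 and 9.89 with JINB8 exosomes, 9.58, 9.64 and 9.60 with JK exosomes, and 10.32, 10.27 and 10.22 in untreated HUVEC. The groups did not overlap, and CD81 fell by 0.47 ± 0.07 with JINB8 exosomes (limma adjusted p = 0.00018) and by 0.66 ± 0.07 with JK exosomes (adjusted p = 1.95e-05). With median centring the CD81 changes were 0.19 and -0.09 and neither passed.

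CD9 and CD63, the other classical vesicle tetraspanins, had no direction that held on both scales. CD9 read 9.67, 9.61 and 9.70 with JINB8 exosomes, 9.75, 9.67 and 9.80 with JK exosomes, and 9.76, 9.89 and 9.80 in untreated HUVEC. Its changes of -0.16 and -0.08 did not pass, while median centring gave 0.42 and 0.43, which did. CD63 read 8.30, 8.21 and 8.20 with JINB8 exosomes, 8.35, 8.46 and 8.45 with JK exosomes, and 8.51, 8.51 and 8.47 in untreated HUVEC. It was lower by limma with JINB8 exosomes on the quantile scale (log2 change -0.26 ± 0.06 SE, adjusted p = 0.00531) and not with JK exosomes (-0.08 ± 0.06), and median centring turned both signs. CD151, a partner of laminin-binding integrins, had changes of -0.47 with JINB8 exosomes and -0.40 with JK exosomes that passed on the quantile scale and turned positive with median centring. TSPAN4, a tetraspanin of migrating cells, passed with JINB8 exosomes (-0.41) and not with JK exosomes (-0.22) on the quantile scale, where it did pass without untreated replicate 2 (-0.31, limma adjusted p = 0.0283). TSPAN14, which escorts the protease ADAM10, and TSPAN8 passed in neither there, and TSPAN8 was a dim probeset with HUVEC group means between percentile 1.2 and 2.8 of all genes.

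In the early ESCRT complexes 2 of 3 ESCRT-0 genes and 3 of 4 ESCRT-I genes passed in each comparison on the quantile scale, all lower, where 23.1% of all genes were lower with JINB8 exosomes and 22.3% with JK exosomes. TSG101, the ESCRT-I subunit that recognises ubiquitin and viral late domains, read 7.09, 7.24 and 7.26 with JINB8 exosomes, 7.36, 7.37 and 7.23 with JK exosomes, and 7.83, 7.80 and 7.73 in untreated HUVEC. VPS37B, an ESCRT-I subunit that binds TSG101, read 6.04, 6.00 and 6.06 with JINB8 exosomes, 6.14, 6.06 and 6.05 with JK exosomes, and 6.65, 6.66 and 6.56 in untreated HUVEC. For both genes the highest treated array was below the lowest untreated one. TSG101 fell by 0.59 ± 0.07 with JINB8 exosomes (limma adjusted p = 6.59e-05) and by 0.47 ± 0.07 with JK exosomes (adjusted p = 0.000351). VPS37B fell by 0.59 ± 0.06 with JINB8 exosomes (limma adjusted p = 2.35e-05) and by 0.54 ± 0.06 with JK exosomes (adjusted p = 4.28e-05). Of the other ESCRT-I genes, VPS37A had a change of -0.46 with JINB8 exosomes and of -0.52 with JK exosomes, and with median centring it passed with JK exosomes alone. VPS28 passed in neither comparison on the quantile scale. In ESCRT-0, which binds cargo first, STAM2 had changes of -0.34 with JINB8 exosomes and -0.42 with JK exosomes, and with median centring it too passed with JK exosomes alone. HGS passed on the quantile scale (-0.18 and -0.20) and not with median centring, where its changes were 0.073 and -0.0023. Its call was lost with JINB8 exosomes without JINB8 replicate 2 or 3 or untreated replicate 3 (limma adjusted p from 0.0672 to 0.0786), and with JK exosomes without JK replicate 1 or untreated replicate 3 (0.063 and 0.0615). STAM passed in neither on the quantile scale (0.05 and 0.02). With median centring STAM passed as higher with JINB8 exosomes (0.42, limma adjusted p = 0.00317) and with JK exosomes (0.30, adjusted p = 0.0204). VPS28 passed as higher on that scale with JK exosomes alone (0.36, adjusted p = 0.00767).

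The promoter of VPS37B is shown because the gene fell with both exosomes on both scales and its promoter holds 2 of the 3 motifs searched. The motifs were CACGTG (the E-box bound by MYC and by the lysosomal regulator TFEB), TGACGTCA (the cAMP response element) and a form of the NF-kB site (3 G, 2 free bases, 3 T, 2 C), on both strands, in the 250 bases before the first start listed. They can overlap, and did not in the sequences printed. In RefSeq (GRCh38.p14) 39 of the 48 genes had such a promoter. CACGTG was in 5 of them (12.8%) and in 6.49% of 27305 promoters, TGACGTCA in 1 (2.56%) and in 1.76%, and the NF-kB form in 1 (CHMP1A, 2.56%) and in 1.73%. The sequence below is chr12:122896125-122896374 on the minus strand, 5′ to 3′, with capitals marking both TGACGTCA matches and the CACGTG match. A match is a description of letters and not of binding.
VPS37B: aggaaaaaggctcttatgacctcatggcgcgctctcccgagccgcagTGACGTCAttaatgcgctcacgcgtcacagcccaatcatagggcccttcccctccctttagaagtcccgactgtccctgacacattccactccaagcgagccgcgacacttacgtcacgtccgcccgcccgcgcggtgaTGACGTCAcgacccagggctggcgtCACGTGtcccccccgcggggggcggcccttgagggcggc

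In ESCRT-III, the filament that cuts the vesicle neck, 1 of 7 genes passed with JK exosomes and 2 with JINB8 exosomes on the quantile scale, all lower. Over all genes 48.6% passed with JK exosomes and 49.2% with JINB8 exosomes, with 22.3% and 23.1% lower. CHMP4B, the main filament subunit, read 6.84, 7.15 and 7.06 with JINB8 exosomes, 7.12, 7.20 and 7.02 with JK exosomes, and 7.60, 7.71 and 7.62 in untreated HUVEC. It fell by 0.62 ± 0.09 with JINB8 exosomes (limma adjusted p = 0.000175) and by 0.53 ± 0.09 with JK exosomes (adjusted p = 0.000554), and it did so on both scales. CHMP6, which starts the filament, had a change of -0.21 with JINB8 exosomes (limma adjusted p = 0.0336) and 0.03 with JK exosomes. CHMP1A, CHMP2A, CHMP2B, CHMP4C and CHMP5 lay between -0.13 (CHMP4C with JK exosomes) and 0.16 (CHMP5 with JINB8 exosomes), and none passed on the quantile scale, though CHMP2A did with JK exosomes without untreated replicate 2 (0.20, limma adjusted p = 0.0422). VPS25 of ESCRT-II had a change of -0.27 with JINB8 exosomes (limma adjusted p = 0.0487) and -0.13 with JK exosomes. Without any 1 of JINB8 replicates 1 to 3 or untreated replicates 1 and 2 the VPS25 adjusted p was 0.0666 to 0.168, and for CHMP6 it was 0.0533 to 0.121 without JINB8 replicate 1 or 2 or untreated replicate 1 or 3. VPS4B, one of the ATPases that recycle the filament, rose with JK exosomes (0.25 ± 0.07, limma adjusted p = 0.00949) and did not pass with JINB8 exosomes (0.14, adjusted p = 0.104). The other ATPase gene, VPS4A, passed in neither on the quantile scale. With median centring VPS4A (0.38, limma adjusted p = 0.0233) and VPS4B (0.44, adjusted p = 0.00284) passed with JINB8 exosomes, while CHMP6 and VPS25 did not (adjusted p = 0.563 and 0.458). On that scale CHMP2A passed as higher with JINB8 exosomes (0.58, limma adjusted p = 0.000268) and with JK exosomes (0.64, adjusted p = 0.000141). CHMP5 (0.53, adjusted p = 0.0195) and CHMP1A (0.26, adjusted p = 0.0428) passed as higher with JINB8 exosomes alone. CHMP4C passed as lower with JK exosomes alone (-0.34, adjusted p = 0.0218).

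In the syntenin route and in ceramide formation the genes that passed on the quantile scale, SDCBP, SMPD3 and SMPD1, were higher on both scales. SDCBP encodes syntenin, the adaptor that links syndecans to ALIX. It read 10.69, 10.72 and 10.36 with JINB8 exosomes, 10.37, 10.25 and 10.67 with JK exosomes, and 9.92, 10.05 and 10.05 in untreated HUVEC. All 6 treated arrays were above the 3 untreated ones, with a log2 change of 0.58 ± 0.12 with JINB8 exosomes (limma adjusted p = 0.00225) and 0.42 ± 0.12 with JK exosomes (adjusted p = 0.0142). SMPD3, the neutral sphingomyelinase at the inner face of the membrane, read 4.90, 4.93 and 4.98 with JINB8 exosomes, 4.81, 4.71 and 4.86 with JK exosomes, and 4.30, 4.27 and 4.30 in untreated HUVEC. It rose by 0.64 ± 0.06 with JINB8 exosomes (limma adjusted p = 1.66e-05) and by 0.50 ± 0.06 with JK exosomes (adjusted p = 9.59e-05). SMPD3 was a dim probeset, with HUVEC group means between percentile 18.4 and 31.2 of all genes. SMPD1, the lysosomal acid sphingomyelinase, rose with JINB8 exosomes (0.26 ± 0.06, limma adjusted p = 0.00352) and did not pass with JK exosomes on the quantile scale (0.13, adjusted p = 0.0765). In 1 fit of all 15 arrays, which pools the spread of the exosome RNA arrays as well, the adjusted p of SDCBP with JK exosomes was 0.148 and that of SMPD1 with JINB8 exosomes 0.0836. SDC1, a syndecan, ARF6, a small GTPase of membrane recycling, and PLD2, a phospholipase D that ARF6 activates, lay between -0.05 and 0.12 and none passed on the quantile scale. With median centring ARF6 passed as higher with JINB8 exosomes (0.35) and JK exosomes (0.38), as did PLD2 (0.35 and 0.29), while SDC1 passed in neither. SMPD1 passed as higher with JK exosomes too on that scale (0.42, limma adjusted p = 0.000833).

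The 2 flotillins, which scaffold membrane rafts together as a complex, moved in opposite directions. FLOT2 read 8.14, 8.25 and 8.50 with JINB8 exosomes, 8.27, 8.38 and 8.08 with JK exosomes, and 7.63, 7.37 and 7.57 in untreated HUVEC. FLOT1 read 6.62, 6.61 and 6.75 with JINB8 exosomes, 6.60, 6.68 and 6.46 with JK exosomes, and 7.16, 7.15 and 7.07 in untreated HUVEC. Neither gene's treated arrays overlapped its untreated ones, and the signs held on both scales. FLOT2 rose by 0.77 ± 0.11 with JINB8 exosomes (limma adjusted p = 0.000195) and by 0.72 ± 0.11 with JK exosomes (adjusted p = 0.00033), the highest change of the 46 genes in each comparison on the quantile scale. FLOT1 fell by 0.47 ± 0.07 with JINB8 exosomes (limma adjusted p = 0.000391) and by 0.55 ± 0.07 with JK exosomes (adjusted p = 0.000143). CAV1, the coat protein of caveolae, read 10.84, 10.74 and 10.57 with JINB8 exosomes, 10.67, 10.58 and 10.65 with JK exosomes, and 10.37, 10.32 and 10.44 in untreated HUVEC. CAV1 rose by 0.34 ± 0.08 with JINB8 exosomes (limma adjusted p = 0.00409) and by 0.25 ± 0.08 with JK exosomes (adjusted p = 0.0191). With JK exosomes the CAV1 call was lost when either JK replicate 1 or untreated replicate 2 was left out (adjusted p = 0.0622 and 0.0631), and in 1 fit of all 15 arrays CAV1 passed in neither comparison (0.0907 with JINB8 and 0.206 with JK exosomes).

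**Figure D3:**
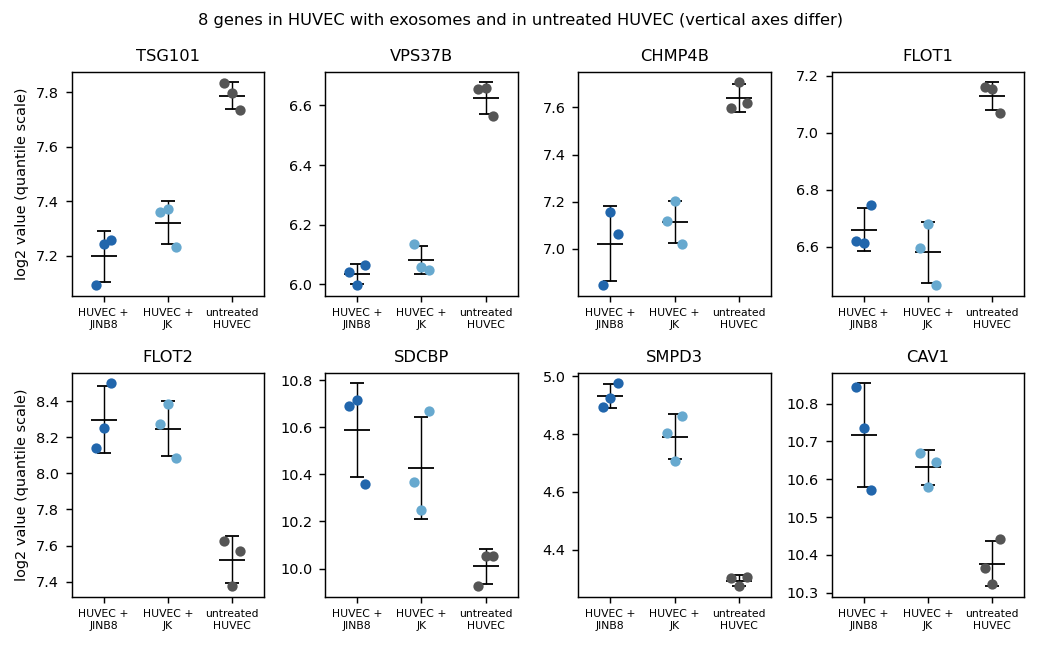
Points are the 3 arrays of each HUVEC group on the log2 quantile scale for 8 genes, long bars the mean and short bars 1 SD, with vertical axes that differ and do not start at 0. Treated arrays lie below untreated ones for TSG101, VPS37B, CHMP4B and FLOT1, and above them for FLOT2, SDCBP, SMPD3 and CAV1.

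Annexins that passed were lower on the quantile scale and none held with median centring. ANXA2, the surface receptor for plasminogen and its activator, read 9.24, 9.17 and 9.30 with JINB8 exosomes, 9.28, 9.33 and 9.25 with JK exosomes, and 9.68, 10.00 and 9.92 in untreated HUVEC. Its log2 change was -0.63 ± 0.08 with JINB8 exosomes (SE, limma adjusted p = 0.000127) and -0.58 ± 0.08 with JK exosomes (adjusted p = 0.000233). With median centring the ANXA2 changes shrank to -0.11 and -0.13 and did not pass. ANXA5, which binds exposed phosphatidylserine, passed in both comparisons on the quantile scale (-0.17 and -0.20), and its sign turned with median centring (0.48 and 0.38). The ANXA5 call was also lost without any 1 of JINB8 replicates 1 to 3 or untreated replicates 1 and 2 with JINB8 exosomes (adjusted p from 0.0602 to 0.144), and without JK replicate 1 or 2 with JK exosomes (0.0534 and 0.0555). ANXA6 passed with JINB8 exosomes on the quantile scale (-0.44 ± 0.12, limma adjusted p = 0.0098) and not with JK exosomes (-0.26, adjusted p = 0.0951), and both signs turned with median centring. Without untreated replicate 2 ANXA6 passed with JK exosomes too (-0.36, adjusted p = 0.0428). ANXA1, an anti-inflammatory annexin, and ANXA11 passed in neither comparison on the quantile scale, though ANXA1 did with JINB8 exosomes without JINB8 replicate 3 (-0.36, adjusted p = 0.0222). With median centring ANXA1 passed as higher with JINB8 exosomes (0.69, limma adjusted p = 0.000136) and with JK exosomes (0.61, adjusted p = 0.000401). On that scale ANXA11 passed as higher with JINB8 exosomes (0.32, adjusted p = 0.0166) and did not with JK exosomes (0.22). Among SNARE genes, SNAP23, a surface SNARE of secretion, had changes of -0.29 and -0.25 that passed on the quantile scale and turned positive with median centring. On the quantile scale YKT6 passed with JINB8 exosomes alone (-0.28), and VAMP7, a SNARE of late endosomes and lysosomes, passed in neither. With median centring the YKT6 call was lost (0.00081), and VAMP7 passed with JINB8 exosomes (0.47, limma adjusted p = 0.00267) and with JK exosomes (0.38, adjusted p = 0.0111). Of the cargo genes LAMP1 and LAMP2 (lysosomal membrane proteins), MFGE8 (a secreted bridge to phosphatidylserine) and TFRC (the transferrin receptor), only TFRC passed on the quantile scale, with JK exosomes (0.39 ± 0.13, limma adjusted p = 0.0276) and not with JINB8 exosomes (0.25, adjusted p = 0.133). The TFRC call was lost without JK replicate 3 (0.102), untreated replicate 2 (0.116) or untreated replicate 3 (0.0573). With median centring all of these cargo genes passed as higher in both comparisons. Their changes with JINB8 and JK exosomes were 0.70 and 0.66 for LAMP1, 0.42 and 0.37 for LAMP2, 0.48 and 0.42 for MFGE8, and 0.70 and 0.81 for TFRC.

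None of the 46 genes passed between HUVEC with JINB8 exosomes and HUVEC with JK exosomes. No gene of the 18417 passed by limma (0%), while 6 of the 46 and 10.2% of all genes had an unadjusted p under 0.05. The smallest p belonged to CHMP6, which read 6.64, 6.56 and 6.69 with JINB8 exosomes and 6.91, 6.83 and 6.87 with JK exosomes. These arrays did not overlap, and the log2 change of -0.24 ± 0.07 did not pass (limma adjusted p = 0.298). CD63 (-0.18, adjusted p = 0.354) and VPS28 (-0.19, adjusted p = 0.356) followed and did not pass either. The 95% intervals of the 46 changes ran from -0.45 (ANXA6) to 0.43 (SDCBP), and none of them reached 2-fold.

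Exosome RNA of the 2 T cell lines differed at 1 of the 46 genes, ANXA6, with 70 of all 18417 genes passing (0.38%), 69 of them higher (0.375%) and 1 lower (0.00543%). ANXA6 encodes annexin A6, which links membranes to cholesterol handling and to the actin cortex. It read 8.37, 8.60 and 8.84 in JINB8 exosome RNA and 7.72, 7.68 and 7.17 in JK exosome RNA. All JINB8 arrays were above all JK arrays, with a log2 change of 1.08 ± 0.17 (SE, limma adjusted p = 0.0317). As deposited the change was 0.65 (limma adjusted p = 0.0152), and 0.679% of all genes passed. The call was lost when any 1 of 5 of the 6 arrays was left out (adjusted p from 0.0655 to 0.142), and held without JINB8 replicate 1 (0.0438). The T cell marker medians given above were also higher in JINB8 than in JK exosome RNA on every array, though none of the 11 markers passed, and their part in the ANXA6 result was not tested. In HUVEC the same probeset averaged 9.78 ± 0.16 with JINB8 exosomes and 9.97 ± 0.17 with JK exosomes (SD, n = 3 each), a log2 change of -0.18 that did not pass. The JINB8 minus JK change was larger in exosome RNA than in HUVEC by 1.26 ± 0.22 (SE, limma adjusted p = 0.0134).

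The next genes by p did not pass in exosome RNA, with groups that did not overlap. SDCBP read 5.53, 6.19 and 5.64 in JINB8 exosome RNA and 5.48, 4.84 and 4.25 in JK exosome RNA (log2 change 0.93 ± 0.28, limma adjusted p = 0.29). CHMP2A, an ESCRT-III subunit that recruits VPS4, read 7.22, 6.64 and 6.39 in JINB8 exosome RNA and 6.22, 6.16 and 6.15 in JK exosome RNA (0.58 ± 0.18, limma adjusted p = 0.328). LAMP1 read 6.59, 6.36 and 6.62 in JINB8 exosome RNA and 5.88, 6.21 and 6.26 in JK exosome RNA (0.41 ± 0.13, limma adjusted p = 0.35). The spread of SDCBP lay mostly in the JK arrays and that of CHMP2A in the JINB8 arrays. ANXA2 went the other way, at 5.63, 5.79 and 5.46 in JINB8 exosome RNA and 6.00, 6.04 and 5.89 in JK exosome RNA (-0.35 ± 0.11, limma adjusted p = 0.356). A fit over all 15 arrays, which borrows the spread of the HUVEC groups, called ANXA6, SDCBP, CHMP2A and LAMP1. It also called many more of all 18417 genes, 544 (410 higher and 134 lower) against 70 in the fit of the exosome RNA arrays alone. Over the 46 genes the 95% intervals ran from -0.68 (TSPAN8) to 1.55 (SDCBP), so the intervals of some genes include 2-fold. Among the tetraspanins CD9, CD63 and CD81 the changes were -0.13, 0.07 and 0.15 and none passed.

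**Figure D4:**
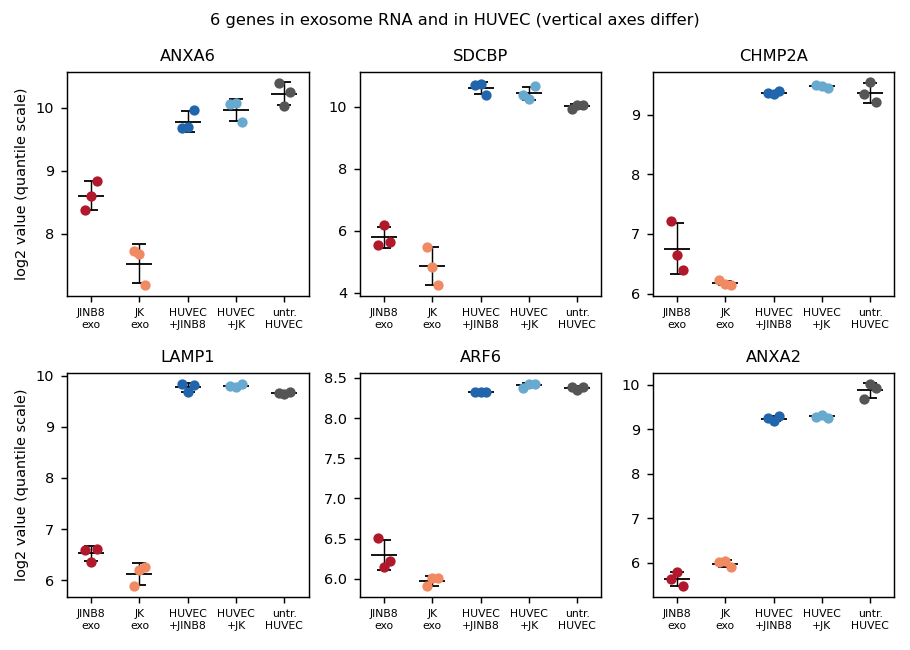
Points are the 3 arrays of each of 5 groups on the log2 quantile scale for the 6 genes with the smallest p between JINB8 and JK exosome RNA, long bars the mean and short bars 1 SD, with vertical axes that differ and do not start at 0. ANXA6 passed in exosome RNA, the other 5 did not, and the HUVEC groups lie above the exosome groups for all 6.

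Promoters of ANXA6 and LAMP1 are shown because the first is the gene that passed and the second held the most CACGTG matches of any listed gene, 5. Capitals mark CACGTG, 5′ to 3′, in RefSeq (GRCh38.p14). ANXA6 is chr5:151157780-151158029 on the minus strand, and LAMP1 is chr13:113296989-113297238 on the plus strand. The match of ANXA6 starts 50 bases before the start, and those of LAMP1 between 192 and 28 bases before it. CD63 and PDCD6IP held 1 CACGTG each.
ANXA6: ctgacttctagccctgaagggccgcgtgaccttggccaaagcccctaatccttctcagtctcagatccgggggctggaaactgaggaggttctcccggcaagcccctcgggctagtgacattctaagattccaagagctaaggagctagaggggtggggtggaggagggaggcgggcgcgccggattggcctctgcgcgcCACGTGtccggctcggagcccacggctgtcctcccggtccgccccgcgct
LAMP1: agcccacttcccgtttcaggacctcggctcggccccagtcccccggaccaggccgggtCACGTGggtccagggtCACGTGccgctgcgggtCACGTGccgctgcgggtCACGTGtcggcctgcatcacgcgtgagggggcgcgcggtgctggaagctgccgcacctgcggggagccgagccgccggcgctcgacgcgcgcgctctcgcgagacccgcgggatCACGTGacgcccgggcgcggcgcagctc

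RNA of T cell exosomes held less signal for most of these genes than RNA of treated HUVEC. Between the 6 exosome RNA arrays and the 6 arrays of exosome-treated HUVEC, 45 of 46 genes passed, 10 higher and 35 lower, while 92.8% of all genes passed, 51.6% higher and 41.2% lower. The median change was -1.83 for the 46 genes and 0.24 for all genes. As deposited 4 were higher and 42 lower (45.3% and 49.7% of all genes), with medians of -3.24 and -0.13, all 46 genes passing against 94.9% of all. Vesicle against cell and T cell against endothelium change together in this comparison and cannot be told apart. These genes were also bright in HUVEC, where their array medians averaged 7.70 with JINB8 and 7.72 with JK exosomes, against 5.81 for all genes. As deposited, probesets spread less in exosome RNA arrays (SD 1.49 to 1.55) than in treated HUVEC arrays (2.18 to 2.23). The part of either in the lower values was not tested. All 11 T cell markers were higher in exosome RNA and 9 of 12 endothelial markers lower, and all 8 platelet and myeloid markers and 10 of 12 mural cell and fibroblast markers were higher as well.

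The 8 genes furthest below HUVEC were ANXA1, CAV1, ANXA5, SDCBP, LAMP2, SNAP23, CHMP5 and STAM2, among them 2 of the 5 annexins and 2 ESCRT genes. ANXA1 read 4.88, 5.19 and 5.08 in JINB8 exosome RNA and 4.90, 5.13 and 5.04 in JK exosome RNA, against 10.56, 10.80 and 11.06 in HUVEC with JINB8 exosomes and 10.89, 10.83 and 10.56 in HUVEC with JK exosomes. CAV1 read 4.78, 5.22 and 4.56 in JINB8 exosome RNA and 4.69, 5.06 and 5.37 in JK exosome RNA, against 10.57 to 10.84 in the treated HUVEC. The gap between the groups was many times the spread within them, with log2 changes of -5.75 ± 0.09 for ANXA1 (SE, limma adjusted p = 2.55e-17) and -5.73 ± 0.12 for CAV1 (adjusted p = 2.97e-16). ANXA5 read 4.49, 4.33 and 4.52 in JINB8 exosome RNA and 4.38, 4.58 and 4.57 in JK exosome RNA, against 9.90 to 10.00 in the treated HUVEC (log2 change -5.47). SDCBP read 4.25 to 6.19 in exosome RNA, against 10.25 to 10.72 in the treated HUVEC (-5.19). Syntenin message was thus the most variable of these in exosome RNA. LAMP2 read 3.64 to 3.85 in exosome RNA, against 8.51 to 8.59 in the treated HUVEC (-4.80). SNAP23 read 4.25 to 4.83 in exosome RNA, against 8.72 to 8.96 in the treated HUVEC (-4.35). CHMP5 read 3.60 to 4.03 in exosome RNA, against 7.47 to 7.81 in the treated HUVEC (-3.89), and STAM2 read 3.78 to 3.99, against 7.50 to 7.70 (-3.73). These 8 genes were lower as deposited too. In exosome RNA the means of LAMP2, CHMP5 and STAM2 lay between percentile 8.15 and 12.1 of all genes and those of ANXA5 and SNAP23 between 21.3 and 22.5. ANXA1 and CAV1 also read below the all-gene median of 5.81 on every exosome RNA array, as did SDCBP on the JK exosome RNA arrays. No detection calls were used, so the sizes of these 8 changes and their order are uncertain.

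Few genes were higher in exosome RNA, and the 2 furthest up stayed so on every scale tried. CHMP4C, an ESCRT-III subunit of the abscission checkpoint, read 7.50, 7.25 and 7.67 in JINB8 exosome RNA and 7.67, 7.84 and 7.29 in JK exosome RNA, against 4.77, 4.76 and 4.80 in HUVEC with JINB8 exosomes and 4.57, 4.76 and 4.82 in HUVEC with JK exosomes. SDC1, a syndecan that plasma cells also carry, read 7.92, 7.86 and 7.98 in JINB8 exosome RNA and 7.73, 7.60 and 7.99 in JK exosome RNA, against 5.78, 6.00 and 5.88 in HUVEC with JINB8 exosomes and 6.02, 6.16 and 5.79 in HUVEC with JK exosomes. Exosome and cell arrays did not overlap for either gene, with log2 changes of 2.79 ± 0.10 for CHMP4C (SE, limma adjusted p = 9.66e-14) and 1.91 ± 0.08 for SDC1 (adjusted p = 1.56e-12). CHMP4B read 7.80 to 8.30 in exosome RNA and 6.84 to 7.20 in the treated HUVEC (1.08 on the quantile scale), and as deposited its sign turned. CD82 (0.99), ANXA11 (0.99), CHMP1A (0.79), TSPAN4 (0.42) and VPS37B (0.23) were also higher on the quantile scale and lower as deposited. With median centring CD82 did not pass (0.14, limma adjusted p = 0.0617), and with untreated in place of treated HUVEC TSPAN4 did not (0.11, adjusted p = 0.305). VPS37B missed the threshold without any 1 of 6 arrays (JINB8 exosome RNA replicate 2 or 3, JK exosome RNA replicate 2, HUVEC with JINB8 exosomes replicate 2, HUVEC with JK exosomes replicate 2 or 3), with adjusted p from 0.0522 to 0.0794. SMPD3 (0.36) and the dim TSPAN8 (0.55) were higher on both of these scales. HGS, whose product starts ESCRT assembly, did not pass on the quantile scale (as deposited it fell by 1.61), with means of 7.24 ± 0.13 in JINB8 exosome RNA and 7.21 ± 0.07 in JK exosome RNA, against 7.29 ± 0.03 in HUVEC with JINB8 exosomes and 7.28 ± 0.02 in HUVEC with JK exosomes (SD, n = 3 each).

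Messages of the proteins by which exosomes are usually identified were lower in exosome RNA than in HUVEC. CD9 read 6.50 to 6.99 in exosome RNA, against 9.61 to 9.80 in the treated HUVEC (log2 change -3.03 ± 0.08). CD81 read 7.46 to 7.86 in exosome RNA, against 9.58 to 9.89 in the treated HUVEC (-1.99 ± 0.07). CD63 read 7.56 to 7.86 in exosome RNA, against 8.20 to 8.46 in the treated HUVEC (-0.61 ± 0.06). All 3 tetraspanins were lower, CD63 by the least. TSG101 read 5.31 to 5.51 in exosome RNA, against 7.09 to 7.37 in the treated HUVEC (-1.84 ± 0.06). FLOT1 read 5.44 to 5.95 in exosome RNA, against 6.46 to 6.75 in the treated HUVEC (-0.87 ± 0.07). Within a complex the changes differed between subunits: ESCRT-III ran from 2.79 (CHMP4C) to -3.89 (CHMP5), and annexins from 0.99 (ANXA11) to -5.75 (ANXA1).

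**Figure D5:**
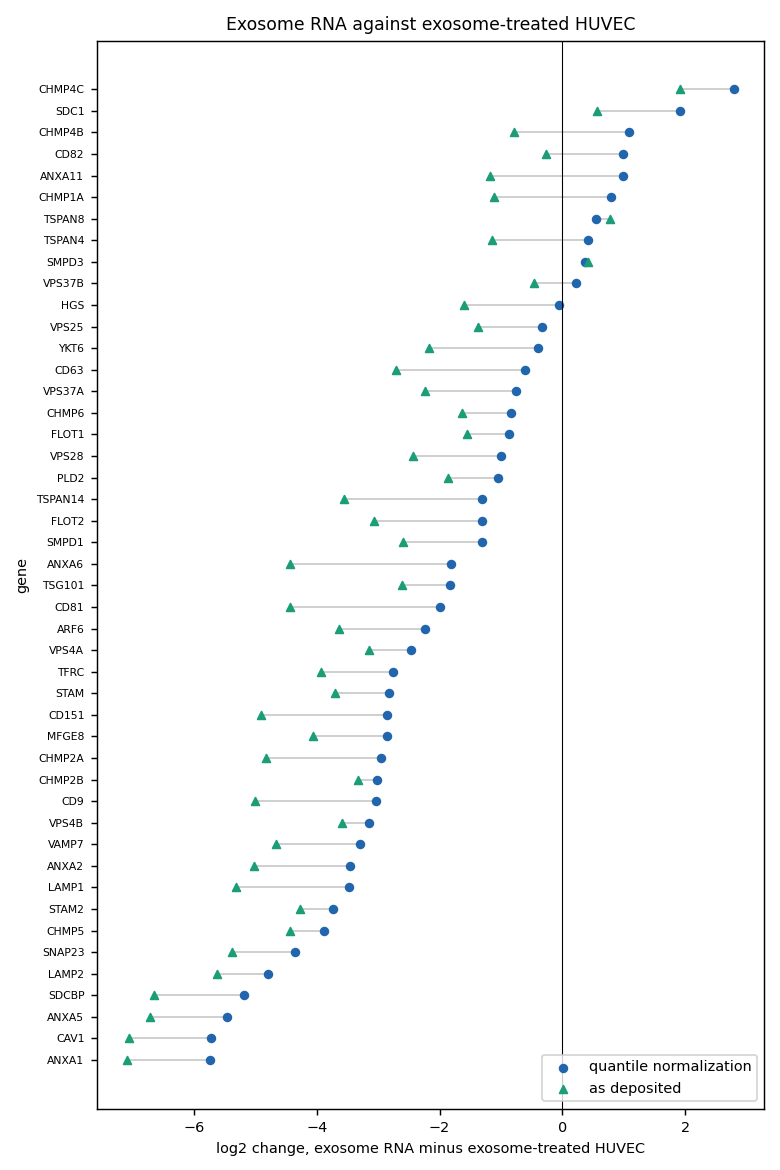
The horizontal axis gives the log2 change between the 6 exosome RNA arrays and the 6 arrays of exosome-treated HUVEC for 46 genes ordered by size, circles on the quantile scale and triangles as deposited. CHMP4C and SDC1 are right of 0 on both, ANXA1, CAV1, ANXA5 and SDCBP furthest left, and 6 genes lie right of 0 as circles and left of it as triangles.

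Further genes of the same families, listed apart from the 48, were counted on the quantile scale. There 49.2% of all genes passed with JINB8 exosomes (26% higher, 23.1% lower) and 48.6% with JK exosomes (26.3% higher, 22.3% lower). Median centring put 38.1% of all genes higher and 18.7% lower with JINB8 exosomes, and 35.1% and 19.5% with JK exosomes. Of 19 other tetraspanins, 14 passed with JINB8 exosomes against untreated HUVEC, 4 higher and 10 lower, and 11 with JK exosomes, 4 higher and 7 lower. With median centring the split was 7 higher and 6 lower with JINB8 exosomes and 6 higher and 5 lower with JK exosomes. TSPAN7 had a log2 change of 0.96 with JINB8 exosomes and 0.93 with JK exosomes, and TSPAN33 of -0.94 and -0.80. Of 6 other annexins, 1 passed with JINB8 exosomes and 2 with JK exosomes, among them ANXA3 at -1.21 and -1.11, the one gene of these annexins past 2-fold on the quantile scale. With median centring 3 passed with JINB8 exosomes, 2 higher and 1 lower, and 4 with JK exosomes, 3 higher and 1 lower. Of 12 other ESCRT genes, 9 passed with JINB8 exosomes, 6 higher and 3 lower, and 6 with JK exosomes, 5 higher and 1 lower, with CHMP7 at 0.47 and 0.50, and with median centring 6 were higher and 1 lower in each. Of 17 other genes of vesicle release and membrane domains, 13 passed in each comparison, 5 higher and 8 lower with JINB8 exosomes and 4 higher and 9 lower with JK exosomes. With median centring it was 6 higher and 6 lower with JINB8 exosomes and 6 higher and 5 lower with JK exosomes. Here RALB, a GTPase of the exocyst, had changes of 0.88 and 0.95. TSPAN7, TSPAN33, ANXA3, CHMP7 and RALB kept their sign and passed with median centring too. Between the exosome RNAs, where 0.38% of all genes passed, 1 of these further genes did. It was HSPA8 (the constitutive HSC70 chaperone), at 0.80 ± 0.11 (SE, limma adjusted p = 0.0159), higher in JINB8 exosome RNA.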

How the data were processed

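The authors deposited log2 values of 33297 probesets on 15 arrays, processed with Affymetrix Expression Console per the submitters' processing notes; the sources used here give neither its version nor its normalization. RNA was 300 ng a sample, per the labels' protocols. In the platform annotation 19460 probesets had 1 symbol, 1754 several and 12083 were not listed; 19429 matched the gene reference by Entrez ID, which changed 0 symbols. Of 18417 genes 769 had several probesets, and the brightest was used. No detection calls were used here.

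Values were quantile normalized over all 15 arrays. HUVEC comparisons were fitted over 9 arrays, exosome RNA over 6, and exosome RNA against treated HUVEC over 12, with limma 3.58.1 in R 4.3.3 (lmFit, eBayes) and Benjamini-Hochberg adjustment over all genes at 0.05; code was tested on simulated data. Alternatives were the deposited scale, median centring, quantile normalization within the fit, leaving out the 40% dimmest genes, a mean of probesets, trend and robust options, a replicate block, 1 fit of all arrays, untreated in place of treated HUVEC, and leaving out each array. Values by array were to be given for genes that passed at 2-fold or more without overlap (up to 8 each way), for the vesicle markers CD9, CD63, CD81, PDCD6IP, TSG101, SDCBP and FLOT1, and, with none passing, for the 3 with the smallest p. Other pathway lists name up to 3 genes each by p. The members, lists and tests were chosen with earlier results of these data known. Further marker lists were of mural cells and fibroblasts and of platelets and myeloid cells.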

Additional observations from a re-analysis of the deposited data

Results flagged for a closer look

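ANXA6 is worth a closer look because its difference between JINB8 and JK was not the same in exosome RNA and in exosome-treated HUVEC. The JINB8 minus JK change was 1.08 in exosome RNA and -0.18 in HUVEC, so that the first exceeded the second by 1.26 ± 0.22 on the log2 scale (SE, limma adjusted p = 0.0134 for the interaction over 12 arrays). Over all genes 136 passed the same interaction test, and ANXA6 was 1 of the 46 genes described here to do so. The test uses the same exosome RNA arrays as the change of 1.08 and is no separate support for that change. The call of that change was lost when any 1 of 5 of the 6 arrays was left out, and with a replicate block (limma adjusted p = 0.103).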

How the results depend on the processing

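With median centring 31 of the 46 genes passed with JK exosomes against untreated HUVEC (10049 of all genes). As deposited all 46 did with either exosome (of all genes 18286 with JINB8 and 18319 with JK exosomes). Genes that turned sign with median centring were, with JINB8 exosomes, CD9 (0.42), CD63 (0.083), CD81 (0.19), CD151 (0.14), TSPAN8 (0.46), TSPAN14 (0.43), HGS (0.073), VPS28 (0.17), CHMP1A (0.26), CHMP2A (0.58), ARF6 (0.35), SNAP23 (0.15), VAMP7 (0.47), YKT6 (0.00081), ANXA1 (0.69), ANXA5 (0.48), ANXA6 (0.23), ANXA11 (0.32) and LAMP2 (0.42). With JK exosomes they were CD9 (0.43), CD63 (0.25), CD151 (0.14), TSPAN8 (0.34), TSPAN14 (0.33), VPS25 (0.027), VPS4A (0.15), SNAP23 (0.12), VAMP7 (0.38), YKT6 (0.13), ANXA1 (0.61), ANXA5 (0.38), ANXA6 (0.39) and ANXA11 (0.22). Between exosome RNA and treated HUVEC, TSPAN4 (-1.14 as deposited, -0.73 with median centring), VPS37B (-0.47 and -0.056), CHMP1A (-1.11 and -0.70), CHMP4B (-0.79 and -0.38) and ANXA11 (-1.18 and -0.77) turned, as did CD82 as deposited (-0.27) and VPS37B with untreated in place of treated HUVEC (-0.34).

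Between HUVEC with JINB8 and with JK exosomes, 8 of all genes passed with median centring, 7 without the 40% dimmest genes, and 25 with trend and robust options, 0 of them among the 46. Between the exosome RNAs the count over all genes was 125 as deposited, 120 with median centring, 107 with quantile normalization within the fit, 108 with trend and robust options and 544 in 1 fit of all arrays, where 4 of the 46 passed. Between exosome RNA and treated HUVEC 10462 genes passed without the dimmest 40%, where fewer were tested. Leaving out 1 array gave 16 to 20 of the 46 genes with JK exosomes (7792 to 8429 of all genes) and 20 to 22 with JINB8 exosomes (7795 to 8530 of all genes) against untreated HUVEC. It gave 0 between the treated HUVEC (0 to 2 of all genes), 0 to 1 between the exosome RNAs (22 to 49 of all genes) and 44 to 45 between exosome RNA and treated HUVEC (16943 to 17032 of all genes). Correlations of the deviations of same-numbered arrays ran from -0.37 to 0.23. With so few arrays in a group, they cannot decide whether the numbers are pairs. A replicate block gave 19 genes with JK exosomes (8566 of all genes) and 23 with JINB8 exosomes (8738 of all genes) against untreated HUVEC. It gave 0 between the treated HUVEC, 45 between exosome RNA and treated HUVEC (17052 of all genes), and 0 between the exosome RNAs (36 of all genes), where ANXA6 had a limma adjusted p of 0.103. In 1 fit of all arrays 7 calls with JINB8 exosomes and 5 with JK exosomes were lost. The causes of these changes were not tested. Among the 46 genes, changes that passed on the 15-array scale were a median 1.29 times as large with quantile normalization within the 9 HUVEC arrays. Some were smaller, such as SDCBP with JK exosomes (0.36 against 0.42). On the 9-array scale 0 of the 46 genes passed at 2-fold. Of all genes 1117 did with JINB8 exosomes, against 627 on the 15-array scale, and 1054 against 558 with JK exosomes.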
